A study of Homo sapiens with 14 samples.

Results

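The D-type cyclins (CCND1, CCND2, CCND3), the E-type cyclins (CCNE1, CCNE2), the cyclin-dependent kinases that they activate (CDK2, CDK4, CDK6), the phosphatase CDC25A and cyclin G2 (CCNG2) were followed in colorectal cancer cells that grew into colonies over 15 days. These 10 genes were taken by symbol as a family, with earlier results of these data known. All 10 were found among the 36601 genes of the single-cell matrices and the 60624 genes used of the bulk tables. SW620 is an established human colorectal cancer line from a lymph node metastasis, and SW480 is an established line from the primary tumor of the same origin. SW620-TET2CD cells are SW620 cells that express the catalytic domain of TET2, an enzyme that oxidizes 5-methylcytosine. The labels call the control line SW620, and the study describes the control cells of its single-cell experiment as carrying a FLAG vector.

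Cells stayed in long-term culture (LTC) without passage. Both SW620 and SW620-TET2CD were profiled by single-cell RNA-seq at days 6, 9, 12 and 15, and each line and day has 1 library. Bulk RNA-seq covered SW480 and SW620 on day 6, and SW620 and SW620-TET2CD on day 15, where cells inside the colonies were separated with a strainer from those outside, again with 1 library each. No condition had a second library, so days 6 and 9 of both lines together (4 libraries, "early") were compared with days 12 and 15 (4 libraries, "late"), and the p-values rest on the spread between these libraries. In this comparison the libraries of both lines on the same day count as separate, and the fit holds no term for the day. No source used here says whether the libraries of successive days came from separate cultures.

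D-type cyclins bind CDK4 and CDK6 and carry growth signals to the cell cycle: the complexes phosphorylate the retinoblastoma protein and so release E2F transcription factors. E2F factors induce the E-type cyclins, which activate CDK2 and start DNA replication. CDC25A removes inhibitory phosphates from CDK2 and other CDKs, whereas CCNG2 is an atypical cyclin known from cells that leave the cycle and as a target of FOXO factors. In colorectal cancer CCND1 is best known as a target of the WNT pathway.

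The promoters of 3 members that moved in the results below are shown, 2 of genes that fell and 1 of the gene that rose. They were taken from the RefSeq promoter table (build GRCh38.p14), which held an entry for 6 of the 10 members: CCND3, CCNE1, CCNG2, CDC25A, CDK4 and CDK6. Each is printed 5′ to 3′ on the gene's own strand, upstream of the start site and outside exons of the GENCODE annotation, with matches in capitals to CACGTG, the E-box bound by MYC, or to an E2F motif (TTTCCCGC, TTTCGCGC, TTTGCCGC or TTTGGCGC), on either strand.
CDK4, chr12:57752448-57752560, minus strand: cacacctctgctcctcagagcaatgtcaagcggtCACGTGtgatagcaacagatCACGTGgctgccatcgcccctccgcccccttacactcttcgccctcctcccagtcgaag
CDC25A, chr3:48188418-48188667, minus strand: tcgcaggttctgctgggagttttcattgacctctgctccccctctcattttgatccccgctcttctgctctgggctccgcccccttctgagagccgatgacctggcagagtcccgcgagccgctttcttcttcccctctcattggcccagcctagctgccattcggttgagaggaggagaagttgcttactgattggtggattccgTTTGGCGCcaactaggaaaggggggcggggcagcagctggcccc
CCNG2, chr4:77156957-77157206, plus strand: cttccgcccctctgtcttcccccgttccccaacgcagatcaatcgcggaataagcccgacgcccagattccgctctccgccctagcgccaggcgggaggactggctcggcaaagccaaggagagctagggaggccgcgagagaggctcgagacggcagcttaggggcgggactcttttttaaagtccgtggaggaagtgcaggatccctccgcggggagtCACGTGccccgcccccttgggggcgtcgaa

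In the whole window of 250 bases before and 50 bases after the start site, the CDK4 promoter held CACGTG 3 times, beginning 216, 196 and 101 bases before the start site. The last of these lies in an exon of a longer CDK4 transcript and is not printed. The CCNG2 promoter held CACGTG once, 30 bases before its start site, and 7.26% of the 35116 promoters of this length held it at least once. The CDC25A promoter held TTTGGCGC once, 44 bases before its start site, and 3.31% of all promoters held a motif of the E2F set. The FOXO motif GTAAACA, present in 3.42% of all promoters, had no match in these letters in the CCNG2 window. It was found once among the 3 windows of CCND3, which fell, beginning 2 bases before that start site. CACGTG was also found once among the 2 windows of CDK6, which did not pass the test, beginning 30 bases after that start site. The CCNE1 window matched none of these motifs. A match describes the sequence and was not tested as a binding site.

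The single-cell libraries together held 67056 barcodes, of which 48282 passed the limits on genes, UMIs and mitochondrial share. Summing the retained cells of a library gave 48186195 to 74185723 UMIs, and levels are given as CPM, UMIs of a gene scaled to 1000000 UMIs of the library. The median cell held 6640 to 13479 UMIs in the early and 7127 to 13110 in the late libraries. Pairs of libraries shared 1 to 23 barcodes, at most 0.334% of the smaller library. The epithelial keratins KRT8 and KRT18 stood above 2990 CPM in every library and EPCAM at 496 to 639 CPM, whereas the colonic keratin KRT20 was near the detection limit, at 0.217 to 0.965 CPM. Of the other epithelial markers VIL1 stood at 82.9 to 123 CPM and CDX2 at 8.99 to 20.4 CPM, and CDH1 varied more, at 24.7 to 119 CPM. The 8 markers of immune, stromal and endothelial cells summed to 2.06 to 3.71 CPM in the early and 3.19 to 5.57 CPM in the late libraries. Of these, PTPRC and COL3A1 had 0 or 1 UMI in every library, CD3E 0 to 3 and DCN 0 to 22. COL1A1 had 69 to 171 UMIs per library, PECAM1 9 to 94, ACTA2 19 to 49 and VWF 9 to 32. TET2, the overexpressed gene, stood at 2.11 to 3.90 CPM in SW620. In SW620-TET2CD its level was not constant, at 106.6, 59.5, 40.2 and 41.6 CPM on days 6, 9, 12 and 15.

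Among these genes the calls between early and late days were mainly downward. CCNE1, CCNE2, CDC25A, CCND3, CDK4 and CDK2 fell, CCNG2 rose, and CCND1, CDK6 and CCND2 did not pass the test (edgeR's quasi-likelihood test with the line as a block, Benjamini-Hochberg adjustment, threshold 0.05). Thus 7 of 10 members passed, where 57.7% of the 16993 genes tested passed, so that the share of members called was not far from that of all genes. The 6 that fell compare with 28.3% of all genes that were called lower, and the 1 that rose with 29.4% called higher. Where early and late libraries of a member did not overlap, this is a description. The share of all genes without overlap was not counted, so whether this sets the members apart is not known. The median log2 fold change was -1.33 over the members and 0.039 over all genes tested. With upper-quartile factors in place of TMM the median of all genes was 0.21, and 63.4% of the called genes were higher, against 51% with TMM, while the same 7 members passed in the same directions.

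**Figure D1:**
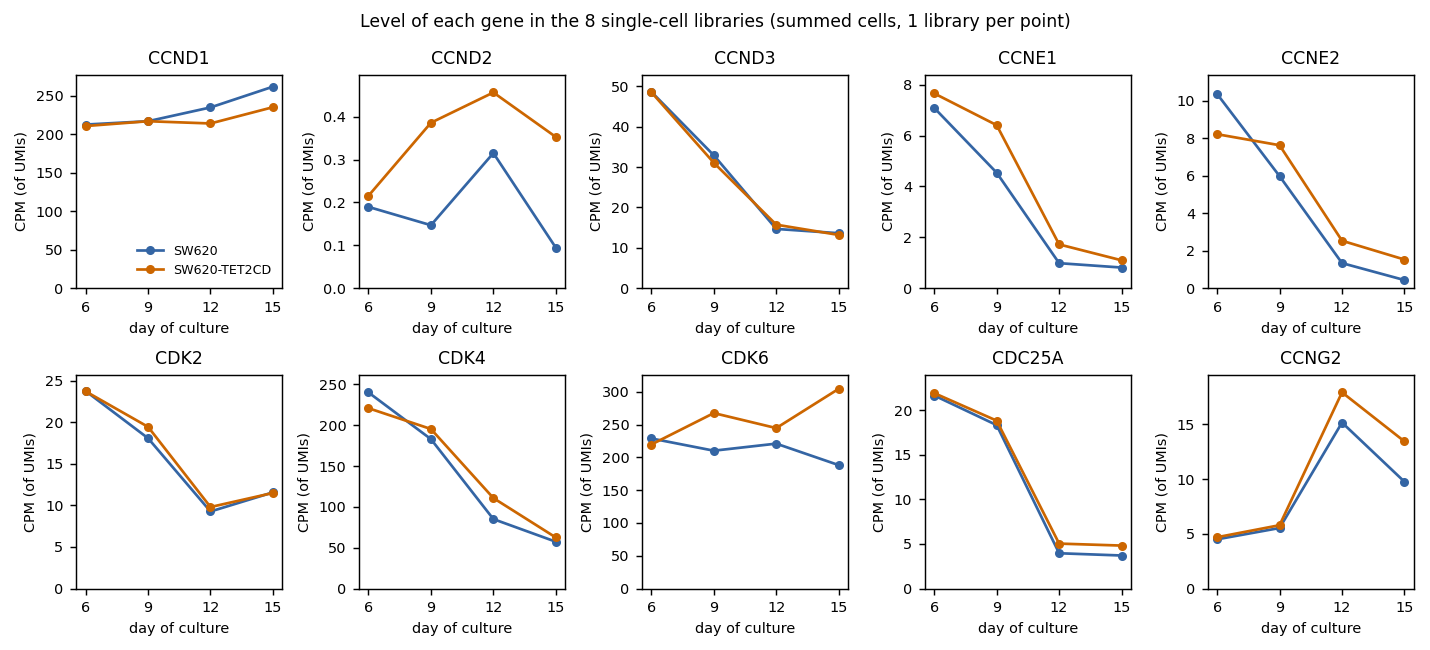
CPM (vertical axis, from 0) of each gene on days 6, 9, 12 and 15 (horizontal axis) in SW620 and SW620-TET2CD, with 1 library per point. CCND3, CCNE1, CCNE2, CDK2, CDK4 and CDC25A are lower and CCNG2 is higher in all 4 late libraries than in any early one, whereas CCND1, CDK6 and CCND2 overlap.

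Of the D-type cyclins CCND3 was the 1 that passed the test. CCND1 (ENSG00000110092, chr11:69641156-69654474, plus strand) measured 212, 217, 235 and 262 CPM in the SW620 libraries of days 6, 9, 12 and 15, and 211, 217, 214 and 235 CPM in those of SW620-TET2CD. The highest library exceeded the lowest by 1.24-fold. Early and late libraries overlapped, and the fitted log2 fold change was 0.030 ± 0.12 (SE, adjusted p = 0.838).

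CCND3 (ENSG00000112576, chr6:41934934-42050357, minus strand), which partners the same kinases, stood at 48.6, 32.9, 14.7 and 13.6 CPM on the successive days in SW620. In SW620-TET2CD it stood at 48.5, 31.1, 15.7 and 13.2 CPM. Every late library was below every early one. The log2 fold change was -1.61 ± 0.18 (SE, adjusted p = 6.23e-05), and the late mean was 34.7% of the early mean in SW620 and 36.4% in SW620-TET2CD.

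CCND2 (ENSG00000118971, chr12:4269771-4305353, plus strand), the third D-type cyclin, was counted with only 5 to 28 UMIs per library, or 0.0946 to 0.457 CPM. A count of 3 UMIs corresponded to between 0.0404 and 0.0623 CPM in these libraries. Its log2 fold change of 0.23 ± 0.37 (SE, adjusted p = 0.615) says little at this depth.

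Of the kinases that pair with D-type cyclins, CDK4 passed the test and CDK6 did not. CDK4 (ENSG00000135446, chr12:57747727-57756013, minus strand) stood at 240, 183, 85.1 and 57.3 CPM on the successive days in SW620 and at 221, 195, 111 and 62.5 CPM in SW620-TET2CD. It was lower in every late library, with a log2 fold change of -1.53 ± 0.20 (SE, adjusted p = 1.50e-04). By day 15 its level was 23.9% of that on day 6 in SW620 and 28.3% in SW620-TET2CD.

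CDK6 (ENSG00000105810, chr7:92604921-92836573, minus strand) stood at 229, 210, 221 and 188 CPM in SW620, whereas the SW620-TET2CD libraries held 220, 267, 245 and 304 CPM. The lowest and the highest of all 8 values were those of the 2 lines on day 15. Early and late libraries overlapped, with a log2 fold change of -0.081 ± 0.11 (SE, adjusted p = 0.565), which was 0.090 with upper-quartile factors.

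Both E-type cyclins fell. CCNE1 (ENSG00000105173, chr19:29811991-29824312, plus strand) stood at 7.09, 4.54, 0.985 and 0.813 CPM on the successive days in SW620, and the SW620-TET2CD libraries held 7.66, 6.41, 1.72 and 1.10 CPM. The late counts were 43 to 83 UMIs per library. The log2 fold change was -2.61 ± 0.22 (SE, adjusted p = 1.62e-05).

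CCNE2 (ENSG00000175305, chr8:94879770-94896678, minus strand) stood at 10.4, 5.97, 1.34 and 0.435 CPM in SW620, the last of these from 23 UMIs. In SW620-TET2CD it stood at 8.21, 7.62, 2.53 and 1.53 CPM. Early and late libraries did not overlap for either E-type cyclin, and the log2 fold change of CCNE2 was -2.67 ± 0.36 (SE, adjusted p = 1.56e-04). The late mean of CCNE2 was 10.9% of the early mean in SW620 and 25.7% in SW620-TET2CD, and the difference between the lines did not pass the test given below.

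CDK2 (ENSG00000123374, chr12:55966781-55972789, plus strand), the kinase that E-type cyclins activate, stood at 23.7, 18.1, 9.26 and 11.6 CPM in SW620 and at 23.7, 19.4, 9.80 and 11.5 CPM in SW620-TET2CD. It fell less than its cyclins, by 1.12 on the log2 scale (SE 0.15, adjusted p = 1.57e-04), with no overlap between early and late libraries.

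CDC25A (ENSG00000164045, chr3:48157146-48188417, minus strand), the activating phosphatase, stood at 21.7, 18.3, 3.96 and 3.71 CPM in SW620 and at 21.9, 18.8, 5.04 and 4.82 CPM in SW620-TET2CD. Its levels on days 6 and 9 lay within 18.3 to 21.9 CPM in both lines, and those on days 12 and 15 within 3.71 to 5.04 CPM. The late mean was 19.2% of the early mean in SW620 and 24.2% in SW620-TET2CD. The log2 fold change was -2.33 ± 0.13 (SE, adjusted p = 6.91e-06).

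CCNG2 (ENSG00000138764, chr4:77157207-77433388, plus strand) moved the other way. It stood at 4.50, 5.53, 15.2 and 9.76 CPM on the successive days in SW620 and at 4.69, 5.79, 17.9 and 13.4 CPM in SW620-TET2CD. Every late library was above every early one, and the log2 fold change was 1.33 ± 0.17 (SE, adjusted p = 1.15e-04). In both lines the highest level was on day 12 and not on day 15.

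The step from day 9 to day 12 held most calls, for the members as for all genes. In a fit with line and day, 7 members passed between days 9 and 12, where 42% of 17478 genes passed. CDC25A fell by 2.17 (SE 0.14), CCNE1 by 2.14 (SE 0.21) and CCNE2 by 1.96 (SE 0.31) on the log2 scale. CCND3 fell by 1.19 (SE 0.14), CDK2 by 1.10 (SE 0.14) and CDK4 by 1.07 (SE 0.17), and CCNG2 rose by 1.42 (SE 0.13), with adjusted p-values between 5.95e-06 and 5.19e-04 for the 7 genes. All 7 passed under each of the 14 alternatives, but with every barcode, or with no upper limits on genes and UMIs, 4 of the changes were smaller by more than 1.5 times. CCNE1 was then at -1.24 and -1.31, CCNE2 at -1.10 and -1.14, CDC25A at -1.29 and -1.36, and CDK2 at -0.64 and -0.71, respectively.

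Between days 6 and 9, 0.887% of all genes passed and 0 of the 10 members did in edgeR, with 3 members at an unadjusted p under 0.05. CCND3 came nearest, with a log2 change of -0.63 ± 0.14 (SE, adjusted p = 0.0582), and it passed under 8 of the 14 alternatives run for it, DESeq2 among them, at -0.75 to -0.59. Between days 12 and 15, 13% of all genes passed and 2 members did. CDK4 fell further, by 0.68 (SE 0.17, adjusted p = 0.0233), and CCNG2 came down from its day 12 level by 0.50 (SE 0.13, adjusted p = 0.0305). The CDK4 call was lost without the day 9 library of either line or the day 12 library of SW620-TET2CD, where its change ranged from -0.69 to -0.44. The CCNG2 call was lost under 9 of the 14 alternatives run for it, DESeq2 and the same 3 libraries among them, with values from -0.59 to -0.31.

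The share of cells that scored for S phase or for G2/M also moved between early and late days. Kept cells of at least 2000 UMIs, 47949 of 48282, were thinned to 2000 UMIs, and the others were left out of the classes. They were scored with lists of S-phase and G2/M genes that hold none of the 10 members, and thinned cells with both scores at or under 0 were taken as neither. All other cells went to S or G2/M by the higher of both scores. These classes are ranges of a score and not cell types. Between 12.9% and 24% of the cells of a library lay within 0.05 of the boundary of the neither class. Cells near the division between S and G2/M were not counted. S-scored cells made up 28% to 34.5% of the early and 2.11% to 8.72% of the late libraries. G2/M-scored cells made up 46.7% to 54.8% of the early and 8.14% to 14.9% of the late libraries, and cells scored as neither rose from 14.9% to 24.8% up to 76.3% to 87.7%. With the boundary moved from 0 to 0.05, the S and G2/M classes lost a larger share of cells in late than in early libraries. S-scored cells of days 12 and 15 went from 163 and 144 to 105 and 83 in SW620. Those of days 6 and 9 went from 1908 and 2092 to 1716 and 1791. In SW620-TET2CD the late counts went from 338 and 222 to 234 and 134. The early ones went from 2458 and 1818 to 2186 and 1596. How far this shapes the changes inside classes was not tested.

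Within a library, several members differed between these classes. CCNE1, CCNE2, CDC25A, CDK2, CDK4 and CCND3 were each higher in S-scored cells than in cells scored as neither in 8 of 8 libraries, and higher in S-scored than in G2/M-scored cells in 8 of 8. CCNE2 had a median of 13.4 CPM in S-scored cells, 3.77 in G2/M-scored cells and 1.99 in cells scored as neither. The corresponding medians of CDC25A were 23.2, 13.6 and 4.62 CPM. CCNG2 was lowest in S-scored cells, with a median of 3.43 CPM in S-scored cells, 9.50 in G2/M-scored cells and 10.3 in cells scored as neither, and it stood below either other class there in 8 of 8 libraries. Its G2/M-scored cells were below those scored as neither in 4 of 4 early libraries, but above them in 3 of 4 late ones. CDK6 was also higher in S-scored cells than in either other class in 8 of 8 libraries, but by little, at medians of 229, 221 and 224 CPM. These orders are given as descriptions, since the classes are made from the same cells. The share of all genes with the same orders was not counted, so whether they set the members apart is not known.

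**Figure D2:**
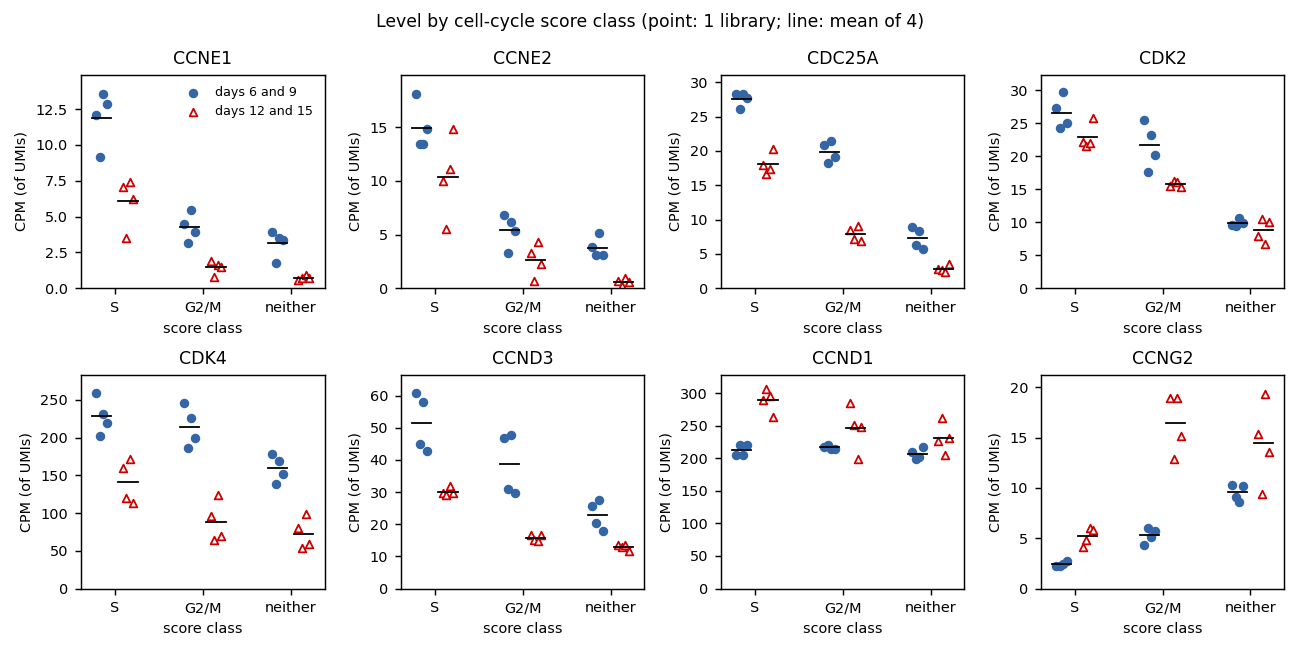
CPM (vertical axis, from 0) of 8 genes in S-scored, G2/M-scored and other cells (horizontal axis), with filled circles for days 6 and 9, open triangles for days 12 and 15, 1 library per point and a line at the mean of 4. CCNE1, CCNE2 and CDC25A are highest in S-scored cells and CCNG2 is lowest there, while within each class late points of CDK4 and CCND3 lie below early ones.

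The change between early and late days was then tested inside each class. In S-scored cells 6 of 9 members tested passed, where 32.8% of 13391 genes passed: 4 fell and 2 rose, against 16.3% of all genes called lower and 16.5% higher. In G2/M-scored cells 7 of 9 passed, where 47.3% of 14604 genes passed: 6 fell and 1 rose, against 23.8% lower and 23.6% higher. In cells scored as neither 6 of 10 passed, where 44.2% of 15616 genes passed: 5 fell and 1 rose, against 21.7% lower and 22.4% higher. CCND2 was under the filter on low counts in the S and G2/M classes.

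CCND3, CDK4, CCNE1 and CDC25A fell and CCNG2 rose in all 3 classes. CCNE1 fell by 0.97 (SE 0.21) in S-scored cells, by 1.70 (SE 0.28) in G2/M-scored cells and by 2.10 (SE 0.28) in cells scored as neither, on the log2 scale. CDK4 changed by -0.73 (SE 0.17), -1.37 (SE 0.21) and -1.15 (SE 0.18), and CCND3 changed by -0.82 (SE 0.16), -1.40 (SE 0.19) and -0.82 (SE 0.16) in the same order. CDC25A changed by -0.66 (SE 0.13), -1.43 (SE 0.15) and -1.36 (SE 0.20). CCNG2 rose by 1.08 (SE 0.24), 1.54 (SE 0.17) and 0.56 (SE 0.19), the last with an adjusted p of 0.0294. This last call was lost without the day 9 or day 12 library of either line or the day 6 library of SW620-TET2CD (0.40 to 0.59), and that of CDC25A in S-scored cells with a score boundary of 0.05 (-0.41, adjusted p = 0.0552). With scoring at 1000 UMIs the values in S-scored cells were -1.58 for CCNE1 and -1.14 for CDC25A. Whether these changes differ between classes was not tested.

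CDK2 and CCNE2 were called in some classes only. CDK2 fell by 0.55 (SE 0.15, adjusted p = 0.0109) in G2/M-scored cells, whereas its log2 fold change was -0.28 ± 0.14 (SE, adjusted p = 0.131) in S-scored cells and -0.19 ± 0.18 (SE, adjusted p = 0.413) in cells scored as neither. In the latter class CDK2 stood at 9.47 to 10.7 CPM early and 6.64 to 10.5 CPM late, so that the groups overlapped. With a score boundary of 0.05, or with scoring at 1000 UMIs, CDK2 passed in cells scored as neither as well, at -0.55 and -0.63 respectively, and with 1 library left out it ranged from -0.32 to -0.045 there without a call. CCNE2 fell by 2.68 (SE 0.34) in cells scored as neither and by 1.20 (SE 0.38) in G2/M-scored cells, and its value in S-scored cells was -0.53 ± 0.20 (SE, adjusted p = 0.0566). The values in S-scored cells moved both ways with the scoring. With a score boundary of 0.05 they came down to -0.11 for CDK2 (adjusted p = 0.612) and -0.096 for CCNE2 (adjusted p = 0.754), whereas with scoring at 1000 UMIs both genes passed, at -0.65 and -1.06. With 1 library left out CCNE2 ranged from -0.68 to -0.40 in S-scored cells and passed only without the day 15 library of SW620-TET2CD. In G2/M-scored cells the call of CDK2 was lost without the day 6 library of either line, and that of CCNE2 without the day 6 or day 15 library of either line. Both were also lost there with a score boundary of 0.05, and over all of these fits CDK2 ranged from -0.44 to -0.36 and CCNE2 from -1.14 to -0.83.

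CCND1 was the other exception. In S-scored cells it stood at 205 to 221 CPM early and 264 to 307 CPM late, without overlap, and its log2 fold change was 0.39 ± 0.13 (SE, adjusted p = 0.0293). That call was lost under 7 of the 10 alternatives run for it, where the value ranged from 0.25 to 0.41. CCND1 did not pass in G2/M-scored cells (0.080 ± 0.12 SE, adjusted p = 0.610) or in cells scored as neither (0.14 ± 0.12 SE, adjusted p = 0.344).

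**Figure D3:**
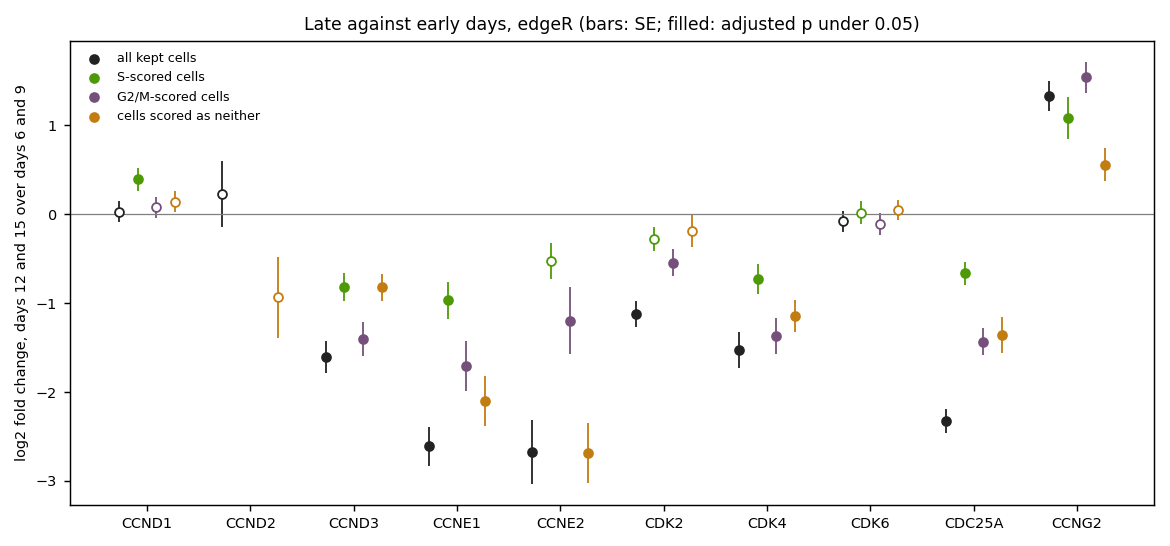
Log2 fold change of late over early days (vertical axis) for each gene (horizontal axis), over all kept cells and inside each score class, with bars of 1 SE and filled points where the adjusted p was under 0.05. Filled points lie below 0 for CCND3, CCNE1, CDK4 and CDC25A and above 0 for CCNG2 in all 4 fits, while those of CDK6 are open and near 0.

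The share of cells in which a transcript was seen moved from day 6 to day 15 in the direction of the CPM for CDK4, CCND1, CDK6 and CCNG2. Cells of at least 2000 UMIs were thinned to 2000, which left 5529 of 5547 kept SW620 cells on day 6 and 6824 of 6913 on day 15. CDK4 was then seen in 36.6% of SW620 cells on day 6 (95% exact binomial interval 35.4% to 37.9%) and in 9.41% on day 15 (8.73% to 10.1%). CCND1 was seen in 31.7% (30.5% to 32.9%) and 35.6% (34.5% to 36.8%) of cells on these days. CCNG2 was seen in 0.977% of cells on day 6 (0.735% to 1.27%) and 2.04% on day 15 (1.72% to 2.40%), and in 3.40% on day 12. In SW620-TET2CD, CDK4 was seen in 35.3% of cells on day 6 and 10.0% on day 15. CDK6 was seen in 36.0% and 29.7% of cells on these days in SW620, and in 35.2% and 42.8% in SW620-TET2CD. Without thinning and over all kept cells, CDK4 was seen in 91.7% of SW620 cells on day 6 and 31.4% on day 15. The intervals cover counting error only.

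No member passed between the lines in the single-cell data. With line and day in the fit, 0 of 10 members passed between SW620-TET2CD and SW620 in edgeR, where 4.32% of 17478 genes passed, and 2 members had an unadjusted p under 0.05. DESeq2 called 0 members too. CCND2, counted with few UMIs, had the highest value at 0.81 ± 0.32 (SE, adjusted p = 0.252), followed by CCNE2 at 0.37 ± 0.22 (SE, adjusted p = 0.503) and CCNE1 at 0.33 ± 0.14 (SE, adjusted p = 0.306). CCND1 had the lowest, at -0.18 ± 0.11 (SE, adjusted p = 0.517). Over the 15 alternatives CCNE2 ranged from 0.067 to 0.74 and CCND1 from -0.24 to -0.083, with no call.

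The ratio of the lines on single days rests on 1 library of each line. For CCNE2 SW620-TET2CD was at 0.793-fold of SW620 on day 6 and at 1.28-fold, 1.89-fold and 3.51-fold on days 9, 12 and 15. For CDK6 the ratio was 0.960-fold, 1.27-fold, 1.11-fold and 1.62-fold on the successive days. CCND3 stayed between 0.944-fold and 1.07-fold. The difference of the lines between late and early days, tested as an interaction, passed for 0 of 10 members and 0% of all genes, with 0 members and 141 genes at an unadjusted p under 0.05. The value of CCNE2 was 1.17 ± 0.62 (SE, adjusted p = 1.00) and that of CDK6 0.17 ± 0.25 (SE, adjusted p = 1.00). They ranged from 0.61 to 2.06 and from 0.048 to 0.28 over the 14 alternatives, again with no call. In this fit changes between days 6 and 9, or days 12 and 15, count as spread, so the absence of calls says little.

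**Figure D4:**
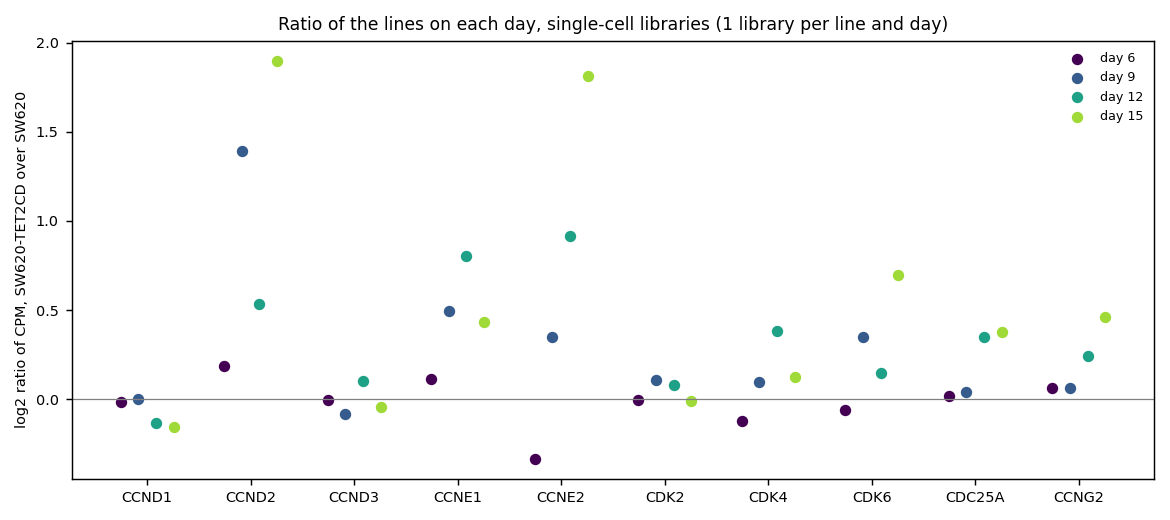
Log2 ratio of CPM, SW620-TET2CD over SW620 (vertical axis), for each gene (horizontal axis) on days 6, 9, 12 and 15, with 1 library per line and day. CCNE2 runs from -0.33 on day 6 to 1.81 on day 15, whereas CCND3 and CDK2 stay within 0.11 of 0.

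Bulk TPM values, which are per transcript length, allow the members to be ranked against each other. In bulk RNA the share of cells that express a gene and the RNA per cell cannot be told apart. In SW620 on day 6, CDK4 was highest at 250 TPM, followed by CDK2 at 65.7, CCND1 at 63.2, CDK6 at 41.2, CCND3 at 29.9 and CDC25A at 26.9 TPM. CCNG2 followed at 8.61, CCNE2 at 7.28, CCNE1 at 4.46 and CCND2 at 0.260 TPM. With 1 library, neighbors in this order cannot be separated. D-type cyclins summed to 93.3 TPM, of which CCND1 made up 67.7%, and E-type cyclins to 11.7 TPM, of which CCNE2 made up 62.0%.

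SW480 on day 6 held 795 TPM of CCND1, 12.6-fold of SW620, and CCND1 made up 92.9% of its D-type cyclins. CCND2 was at 5.85 TPM, 22.5-fold of SW620. CDK6 went the other way, at 8.75 TPM in SW480, or 0.212-fold of SW620. CDC25A, at 26.7 TPM, and CDK2, at 75.5 TPM, stood at 0.993-fold and 1.15-fold of SW620. These are values of 1 library each, with no test.

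**Figure D5:**
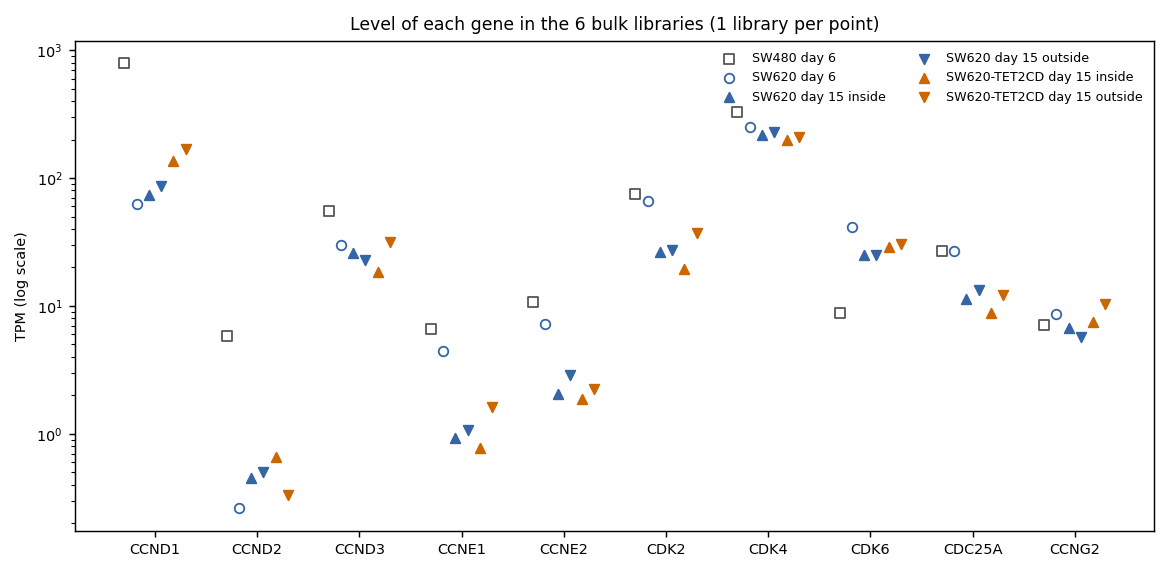
TPM (vertical axis, log scale) of each gene (horizontal axis) in the 6 bulk libraries, with 1 library per point. CCND1 stands at 795 TPM in SW480 against 63.2 TPM in SW620 on day 6, CDK6 shows the opposite order, and CCND1 of the day 15 libraries is higher in SW620-TET2CD than in SW620.

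On day 15 the bulk values of cells outside and inside the colonies were compared over both lines (4 libraries, with 1 residual degree of freedom). In edgeR 0 of 10 members passed, where 0% of 17722 genes passed, and 2 members and 1068 genes had an unadjusted p under 0.05. DESeq2 called 24 genes, with 0 members among them. The 2 members at an unadjusted p under 0.05 in edgeR were CCND1, at a log2 difference of 0.33 ± 0.10 (SE, adjusted p = 0.772), and CDK2, at 0.47 ± 0.17 (SE, adjusted p = 0.772). For CCNE1, which was not among them, the inside and outside libraries held 0.93 and 1.06 TPM in SW620 and 0.78 and 1.63 TPM in SW620-TET2CD. CDK2 stood at 26.2 and 27.3 TPM in SW620 and at 19.4 and 37.2 TPM in SW620-TET2CD, so that the outside library was higher in both lines.

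Between the lines on day 15, CCND1 was the 1 member that passed in bulk, where 0.412% of all genes passed. Cells inside the colonies held 73.9 TPM and those outside 87.0 TPM in SW620, and 135.7 and 170.1 TPM in SW620-TET2CD. The ratio was 1.84-fold inside and 1.96-fold outside, and the fitted log2 fold change was 0.96 ± 0.10 (SE, adjusted p = 0.0495). The call stood just within the threshold and was lost with location left out of the fit (log2 fold change 0.96, adjusted p = 0.104). A fit without 1 library also has to leave out location, since no residual degree of freedom would remain, so the parts of the library and of location cannot be told apart. In such fits CCND1 ranged from 0.78 to 1.12, without a call when either SW620 library was left out and with one when either SW620-TET2CD library was. In the single-cell libraries of day 15 the ratio ran the other way, with CCND1 at 235 CPM in SW620-TET2CD and 262 CPM in SW620, or 0.898-fold. TET2 itself was higher in SW620-TET2CD in both assays. The log2 difference was 5.90 ± 0.47 in bulk (SE, adjusted p = 0.0457) and 4.27 ± 0.31 over all single-cell libraries (SE, adjusted p = 1.15e-05). In bulk TET2 stood at 38.1 TPM inside and 124.3 TPM outside the colonies in SW620-TET2CD, against 1.15 and 1.29 TPM in SW620.

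The change from day 6 to day 15 in SW620 also stood differently in the assays for some members. The log2 ratio of CCNE1 was -2.26 inside and -2.07 outside the colonies in bulk, against -3.12 in the single-cell libraries. CDK2 was at -1.33 and -1.27 in bulk against -1.04, and CDC25A at -1.25 and -1.004 against -2.55. CCNE2 had the widest gap, at -1.84 and -1.33 in bulk against -4.57, where its single-cell level of day 15 rests on 23 UMIs. CDK4, however, was at -0.20 and -0.13 in bulk against -2.07, and CCND3 at -0.22 and -0.40 against -1.84. CDK6 was at -0.71 and -0.72 in bulk against -0.28, so that in bulk its ratio was lower than that of CDK4. CCNG2 was at -0.35 and -0.58 in bulk and at 1.12 in the single-cell libraries. The sources used here do not make clear whether the bulk SW620 culture of day 6 carried the FLAG vector. Each value rests on 1 library per day, the assays took and read the cells in different ways, and the differences were not tested.

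Other genes of the pathway were taken from lists, with none of the 10 members in them. Of 24 regulators of the G1/S step, 11 fell, 7 rose and 6 did not pass, with a median log2 fold change of -0.14. Over all genes tested 28.3% were called lower and 29.4% higher, so that the share of these regulators that rose was near that of all genes. CDKN2B, an inhibitor of CDK4 and CDK6, rose by 2.80 (SE 0.46, adjusted p = 5.14e-04). CCNA2, the cyclin that follows the E-type cyclins on CDK2, fell by 2.74 (SE 0.17, adjusted p = 6.91e-06), and the mitotic kinase CDK1 fell by 2.21 (SE 0.26, adjusted p = 7.14e-05).

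All 20 E2F targets fell, with a median of -2.59, where 28.3% of all genes were called lower. MYBL2, a transcription factor of cycling cells, fell by 3.94 (SE 0.28), RRM2, a subunit of ribonucleotide reductase, fell by 3.37 (SE 0.22) and CDC45, a part of the replicative helicase, fell by 3.36 (SE 0.29). Of these 20 genes, 11 are also in the S-phase list used for scoring. For those 11 the counts inside classes are not independent of the scoring, and the other genes were not counted apart. Inside the classes, 14 of 20 E2F targets fell in S-scored cells, 19 in G2/M-scored cells and 19 in cells scored as neither, where 16.3%, 23.8% and 21.7% of all genes tested in these classes were called lower.

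Of 14 FOXO targets 11 rose and 0 fell, with a median of 1.51, where 29.4% of all genes were called higher. TXNIP, an inhibitor of thioredoxin and of glucose uptake, rose by 3.10 (SE 0.36), GABARAPL1, an autophagy gene, by 2.60 (SE 0.18) and the transcription factor KLF9 by 2.37 (SE 0.47). Between the lines, where 4.32% of all genes passed, KLF9 was the 1 of 14 FOXO targets called, higher in SW620-TET2CD by 1.18 (SE 0.23, adjusted p = 0.0128). Of the 24 regulators of the G1/S step 1 was called there, CDKN2C, an inhibitor of CDK4 and CDK6, with a log2 difference of -0.58 (SE 0.13, adjusted p = 0.0240). Of 12 WNT targets 3 passed, a smaller share than the 57.7% of all genes that passed: LGR5 fell by 0.97 (SE 0.36, adjusted p = 0.0414) and AXIN2 by 0.43 (SE 0.14, adjusted p = 0.0218), and JUN rose by 0.65 (SE 0.16, adjusted p = 6.53e-03). The median log2 fold change over these 12 was -0.054.

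Across the 8 libraries, the 6 members that fell gave Pearson's r of log2(CPM + 1) between 0.867 and 0.987 over their 15 pairs, and CCNG2 gave -0.970 to -0.796 with them. These signs follow from grouping the genes by their change over the same 8 libraries, and the values are descriptions without a test. Among the 8717 genes with a mean of at least 8 CPM, the 3 most like each member were named. They were SKP2, SNRPG and BAG2 for CCNE1 (r at least 0.997), VRK1, RRP1B and MGME1 for CDC25A (at least 0.997), IFI30, GLYCTK and TAF9B for CDK4 (at least 0.998) and WDR1, ERAL1 and PRPS1 for CCND3 (at least 0.995). NOL9, NUDT16 and EIF2B5 were most like CCNE2 (at least 0.995), and USP39, DHRS11 and PTGES3 most like CDK2 (at least 0.993). CCNG2 was most like LINC00511, NRN1 and FKBP9 (at least 0.984), CCND1 most like PRKD2, S100A13 and S100A6 (at least 0.975) and CDK6 most like NRIP1, GSE1 and PPP6R2 (at least 0.967). For CCND2, whose counts are low, they were ZNRF3, BCL11A and HOXA4 (at least 0.958). These are the highest values out of 8717 genes over only 8 libraries, and even this rarely counted gene reached high ones. They are therefore no evidence of a specific link between a gene and a member.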

How the data were processed

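The authors deposited, for each of 8 single-cell RNA-seq libraries, matrices of UMI counts per gene and barcode, made with Cell Ranger 4.0 against GRCh38, and for each of 6 bulk libraries an RSEM table with an expected count (RSEM's estimated count of reads), a TPM value and effective lengths per gene. The processing notes also name mm10 for the bulk tables, although every identifier in them is human, and no source used here names the annotation release of the bulk tables. The single-cell reference was a GRCh38 release of 10X Genomics, per the methods. A bulk library held a total expected count of 16477779 to 25854058, after setting aside 45 pseudoautosomal copies on chromosome Y.

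Kept cells had between 200 and 4500 genes, between 1000 and 20000 UMIs and no more than 10% of UMIs from mitochondrial genes, and no doublet caller was run. Raw UMIs were summed per library, or per library and score class (scanpy 1.11.5, classes of at least 50 cells), and expected counts were rounded. Genes were tested with edgeR 4.0.16 (two-sided quasi-likelihood test after filterByExpr and TMM scaling) under R 4.3.3. DESeq2 1.42.0 served as an alternative. Adjustment was by Benjamini-Hochberg across every gene tested. SE is the log2 fold change divided by the square root of the F statistic. The edgeR fits of late against early days and of the lines in each assay were also run on simulated counts. These were drawn separately for each library without an effect of the day, so they do not cover libraries that share a day. Coordinates are those of GENCODE (GRCh38) by Ensembl identifier. Levels of single libraries are plain CPM, without TMM factors.

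Alternatives were no filter on low counts, upper-quartile factors, other cell limits, no block, thinned cells, other score boundaries and each library left out. The members, the gene lists and the tests were chosen with earlier results of these data known. Named were all members, up to 3 genes past the threshold with the largest change of each list, TET2, and the 3 genes most like each member.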

Additional observations from a re-analysis of the deposited data

How the results depend on the processing

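The 7 members called between late and early days kept their call and direction in all 16 alternatives run for each, with log2 fold changes from -3.00 to -1.89 for CCNE2, -2.82 to -1.93 for CCNE1, -2.41 to -1.75 for CDC25A and 1.20 to 1.51 for CCNG2. The 3 members without a call changed sign in places: CCND1 was -0.012 with no filter on low counts and -0.011 with every barcode, and ran from -0.070 to 0.060 with 1 library left out, CCND2 ran from -0.036 to 0.43 with 1 library left out, and CDK6 was 0.090 with upper-quartile factors. Without thinning, the share of cells with a CDK4 UMI in late over early libraries was 0.601, against 0.404 at 2000 UMIs. The counts of called genes moved more for the small comparisons, and the cause was not tested. Between days 6 and 9 they were 371 in DESeq2, 978 with no filter, 479 with every barcode, 340 at a mitochondrial limit of 20% and 1 to 1363 with 1 library left out, against 155. Members called in that step were 1 in DESeq2, 1 with upper-quartile factors, 1 with every barcode, 1 with no upper limits and 1 at a mitochondrial limit of 20%, each time CCND3, 2 with no filter (CCND3 and CCNE2), and 0 to 2 with 1 library left out. Between days 9 and 12 the genes called were 3395 to 9110 with 1 library left out. Between days 12 and 15 they were 269 to 3220, members called were 0 to 4, and with every barcode or with no upper limits 4 members were called: CDC25A, CCNE2, CDK4 and CCNE1. For the lines, 1489 genes were called with no filter, 46 with no day block and 440 to 774 with 1 library left out, against 755, and 0 members in each. The interaction called 15 genes with no filter and 0 otherwise, and no member. In bulk, location called 24 genes in DESeq2 and 472 with no filter, and no member. The lines in bulk called 704 genes in DESeq2, 2239 with no filter, 178 with upper-quartile factors and 8 without location in the fit, where 0 members passed, against 73, and 0 to 4191 genes and 0 to 3 members with 1 library and also location left out, so that these choices cannot be told apart there. By replicate number, no paired analysis was possible because every group has a single library, numbered 1. The lines are matched by day, and in bulk by location, and in that sense the fits with these as blocks are paired. With 1 library per condition, how far parallel cultures of a line would differ on a given day is unknown, and CCND2 was too rarely counted for its changes to be read.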
